A study of Mus musculus with 8 samples.

Results

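The genes described here encode the subunits of the mitochondrial respiratory chain and of the ATP synthase, measured in mouse bone marrow-derived macrophages that had been given human or rat islet amyloid polypeptide (IAPP). Members were all probes of an Illumina bead array whose platform gene symbol matched in full Nduf followed by a, b, c, s or v and digits, Sdha to Sdhd, a symbol starting with Uqcr, Cox4 to Cox8 or Atp5, or Cyc1. This rule uses names only and no measured value. It took in 98 of 25697 probes, or 79 of 16593 genes, of which 33 were assigned to complex I, 3 to complex II, 9 to complex III, 18 to complex IV and 16 to the ATP synthase, complex V. Of the 79 genes, 70 had a probe that was detected on at least 4 of the 8 arrays and were tested. The genes of mitochondrial DNA and Sdha were not analysed here.

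One set of wells held macrophages given human IAPP at 15 µM for 12 hours (n = 4 wells), and the control wells held macrophages given rat IAPP at 15 µM for 12 hours (n = 4 wells). All cells derived from C57BL/6 bone marrow, cultured for 7 days in a 10% serum medium that held 15% L929-conditioned medium (which supplies the growth factor of macrophages), and went without the conditioned medium for 12 hours before the peptide. The dose is given in micromolar in titles and design text, but in millimolar in the treatment protocol. IAPP, or amylin, is a peptide hormone co-secreted with insulin. The human peptide readily aggregates into amyloid and the rat peptide does not, so the comparison asks how macrophages respond to an aggregating form. Both groups received a peptide, and wells without one were not analysed here. Each replicate was 1 well of a 24-well plate, and nothing in the labels ties wells to separate animals, so p-values here reflect only well-to-well spread, possibly technical.

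The respiratory chain passes electrons from NADH (complex I) and succinate (complex II) through ubiquinone to complex III, and from there through cytochrome c to oxygen at complex IV. Complexes I, III and IV pump protons out of the matrix as they do so, and the ATP synthase lets them flow back through a ring of c subunits to make ATP. In macrophages the balance between this respiration and glycolysis is known to shift with activation, and succinate and complex I are known to take part in inflammatory signalling.

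Array brightness differed between wells. Mean raw signal was 1144 to 1368 units in the human IAPP arrays, against 1523 to 1967 in rat replicates 1 to 3 and 1180 in rat replicate 4, which stood apart from its group. Between 42.1% and 47.6% of probes were detected per array. Among markers of the labelled cell type, all 8 macrophage genes on the array were tested, with Adgre1, Fcgr1 and Mertk lower and Cd14 higher with human IAPP. Their summed linear level was 147083 to 150251 units in the human IAPP arrays and 133751 to 140959 in the rat IAPP arrays, and its part in the results was not tested. The 7 T or NK cell, 4 B cell, 3 erythroid and 5 muscle marker genes on the array were undetected on every array, as were 4 of 7 neutrophil, 5 of 6 dendritic cell and 5 of 7 fibroblast markers. Of the neutrophil genes, Elane was detected on 3 human and 1 rat IAPP arrays and called higher (0.44, adjusted p = 0.0468), and S100a8 was detected on all 8 arrays with means of 11.06 with human IAPP and 11.11 with rat IAPP. The summed neutrophil marker level was 1940 to 2915 units in the human IAPP arrays and 2186 to 2552 in the rat IAPP arrays, and its part in the results was not tested.

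With quantile normalised values, most respiratory chain genes lay slightly lower with human IAPP, by amounts that were small beside those of the rest of the transcriptome. Not every scaling of the arrays gave this direction, as set out below. Of the 70 genes tested, 32 fell, 1 rose (Atp5g1) and 37 were not called (limma, Benjamini-Hochberg adjusted p under 0.05 over all 7809 genes). These shares are 45.7% lower and 1.43% higher, where all genes gave 32.5% lower and 23.8% higher, or 56.4% in either direction. The members' median log2 difference, human minus rat, was -0.18, with quartiles of -0.30 and -0.024 and a range of -1.18 to 0.43, against a median of -0.055 for all genes. Only 3 members (Ndufb11, Cox7a2l and Uqcrh) were both called and at least 1.5-fold apart, whereas 27.1% of all genes were. In bulk RNA such as this, fewer cells of a type and less RNA per cell cannot be told apart.

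**Figure D1:**
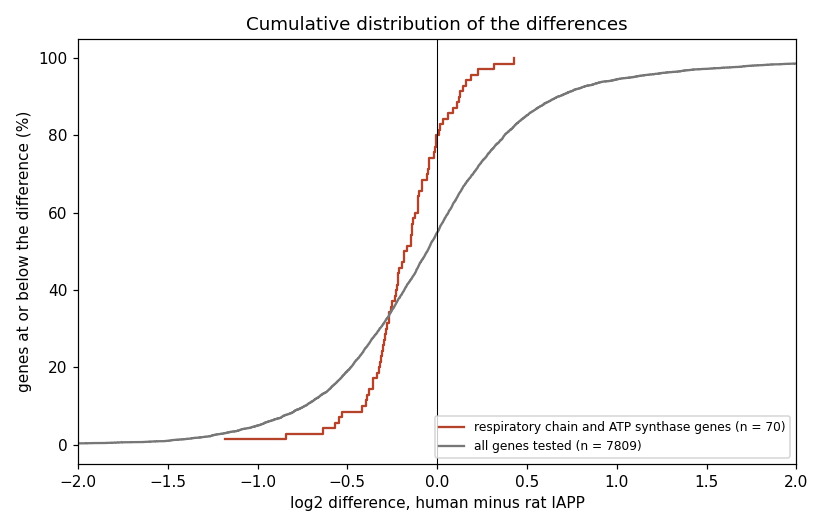
Cumulative share of genes (vertical axis, percent) at or below a given log2 difference, human minus rat IAPP (horizontal axis), for the 70 tested respiratory chain and ATP synthase genes (red) and all 7809 tested genes (grey). The red curve is steeper, with quartiles at -0.30 and -0.024, while the grey curve spreads widely to both sides.

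The same normalised values were also set out by well, which is a description and no separate test. The median normalised log2 intensity over the 70 genes was 12.60, 12.60, 12.60 and 12.53 in the human IAPP wells, against 12.75, 12.85, 12.73 and 12.85 in the rat IAPP wells, without overlap. All 4 human IAPP wells lay below all 4 rat IAPP wells for 30 members and above them for 1, where 29.7% and 21.6% of all genes did so. These counts were 20 and 6 with cyclic loess (2031 and 1906 of all 7809 genes) and 9 and 0 with median scaling (2270 and 497). They were 11 and 6 with scaling on detected probes (1956 and 1946) and 8 and 8 with the authors' values (1803 and 2124). Without rat replicate 4, 31 members were called lower and 4 higher with a median of -0.16. All 7654 genes then gave 2638 lower and 2042 higher. With rat replicate 4 as the only control the median was -0.25, against -0.075 for all genes. Leaving out rat replicate 2 brought the count called lower to 20, beside 2176 of all 7594 genes. The 1953 genes with the brightest probes, which include 53 of the members, gave 36.3% lower, 25.9% higher and a median of -0.073, and 29 of 57 cytosolic ribosomal protein genes were lower and 1 higher with a median of -0.25.

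The direction of the family as a whole depended on how the arrays were scaled, and 41 of the 70 members did not keep a direction. Quantile normalisation, used for the values above, gave 32 lower and 1 higher, and cyclic loess gave 19 lower and 4 higher with a median of -0.11, beside 28.8% lower and 26.5% higher among all genes. Scaling each array on the median of its probes shifted all genes to a median of -0.40, and the members followed with -0.45, 21 being lower and 0 higher (40.1% and 6.61% of all genes). Scaling on the median of the probes detected on all arrays left 11 lower and 6 higher with a median of -0.015 (27.3% and 28.1% of all genes). With the authors' own rescaled values 9 members were lower and 10 higher with a median of 0.042 (25.9% and 29.9% of all genes). The 7 scalings also count quantile normalisation without background correction and with a background offset of 50, which change only the background step. The median scalings differ from each other only by a constant for each array. The 7 are therefore not independent checks. Over them, 28 members kept a negative difference, 1 a positive one and 41 took both signs, while 0 were called in opposite directions and 24 were never called. The same tally over all genes was not made. The same change of sign was seen in the cytosolic ribosomal protein genes, which had 9 lower and 13 higher with the authors' values. Which scaling is nearer to RNA per cell was not tested.

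**Figure D2:**
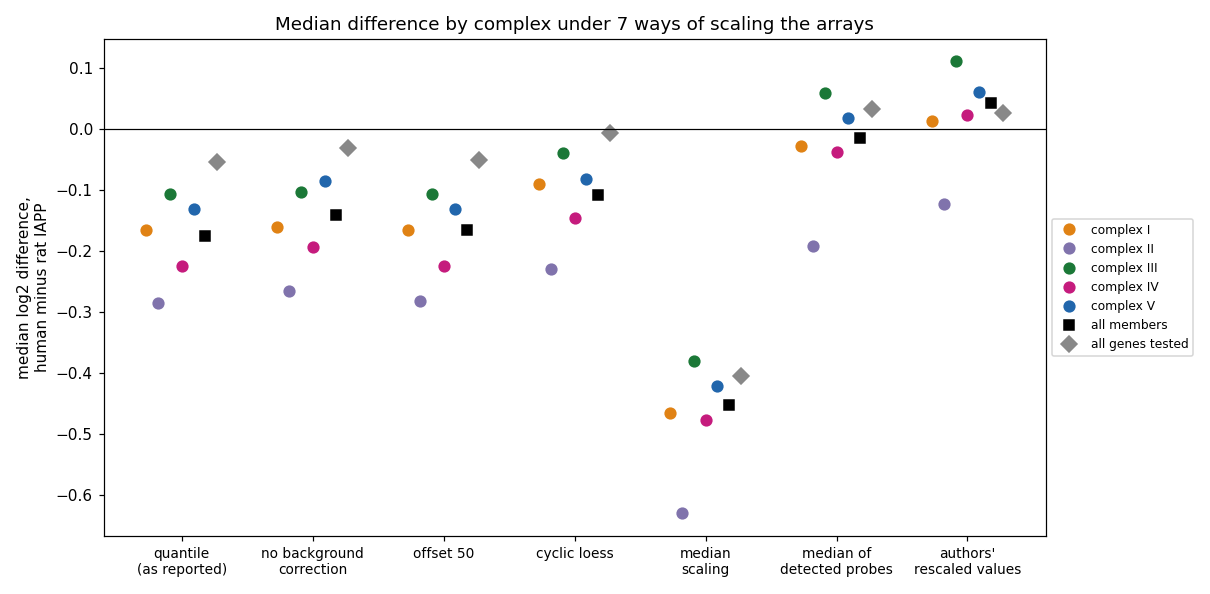
Median log2 difference, human minus rat IAPP (vertical axis), of the genes of each complex, of all 70 members and of all genes tested, under 7 ways of scaling the arrays (horizontal axis). All medians shift from scaling to scaling, and complex II, whose median is the value of Sdhb, lies lowest under each. The member median turns from -0.18 with quantile normalisation to 0.042 with the authors' values. Taken minus the median of all genes, it is -0.12 and 0.016 in these 2 scalings.

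A set of 9 of the 70 members was called lower under every one of the 7 scalings. How many of all genes did so was not counted, so the 9 cannot be set beside a background share. Under single scalings, 25.9% to 40.1% of all genes were lower. The 9 were Ndufv2, Ndufb5 and Ndufb11 of complex I, Sdhd of complex II, Uqcrh of complex III, Cox6a2 and Cox7a2l of complex IV, and Atp5c1 and Atp5g2 of the ATP synthase. Atp5g1 stayed positive in 7 of 7 scalings and was called higher in 6. Of these genes, Uqcrh, Cox7a2l and Atp5g2 kept their call in all 22 alternatives tried, and Ndufb11 in the 21 that could test it. With rat replicate 4 as the only control, Ndufv2, Ndufb5, Sdhd, Cox6a2 and Atp5c1 were not called. In that comparison the spread comes from the human IAPP wells alone and the lone rat IAPP well is assumed to vary like them. A lost call there therefore does not decide whether a gene is stable. The differences of Sdhd and Atp5c1 were also smaller in size there, as given below. Rat replicate 4 was the lowest rat IAPP well for Ndufv2 (12.58) and Ndufb5 (9.84) as well, but not for Cox6a2 (8.20). The cause was not tested.

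By complex, 15 of 32 tested genes of complex I were lower and 0 higher, with a median of -0.17, beside 32.5% lower, 23.8% higher and a median of -0.055 for all genes. Complex II gave 2 of 3 lower and a median of -0.29, complex III 3 of 7 lower and -0.11, complex IV 6 of 13 lower and -0.22, and complex V 6 of 15 lower, 1 higher and -0.13. With the authors' values the medians of complexes I, III, IV and V were 0.012, 0.11, 0.022 and 0.060, and that of complex II was -0.12. The complex II median over 3 genes is the value of Sdhb, which was not called there (adjusted p = 0.0561). With those values Sdhd had -0.35 and Sdhc 0.16. No test of a difference between complexes was made. Ndufa4 is counted with complex I through its symbol, although its product is now assigned to complex IV.

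**Figure D3:**
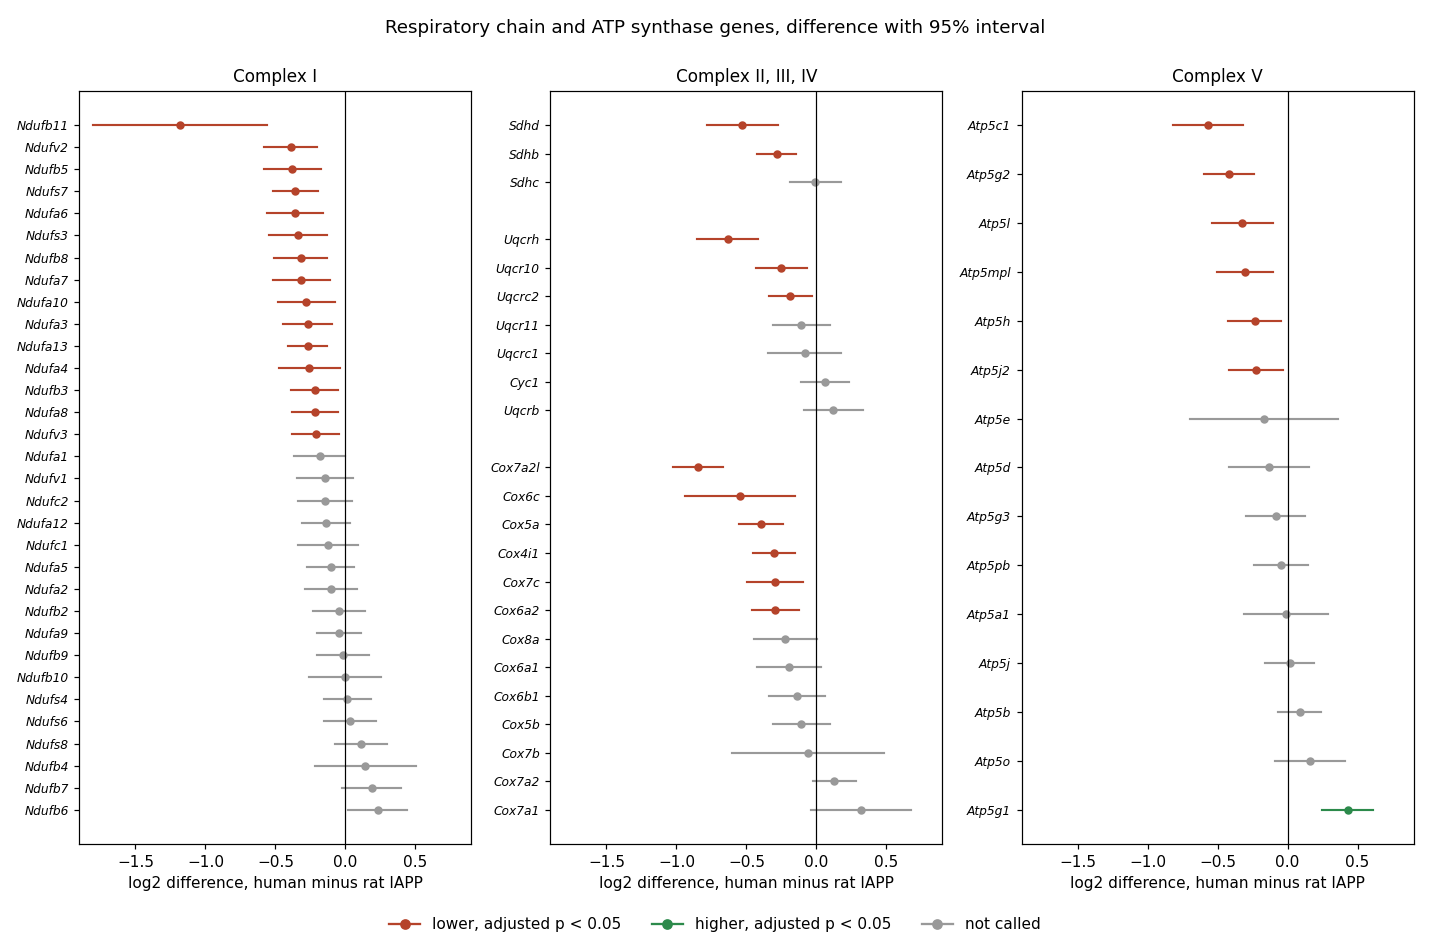
Log2 difference, human minus rat IAPP, with its 95% interval (horizontal axis) for each of the 70 tested genes, grouped by complex and ordered by size (quantile normalised values, n = 4 wells per group). Red marks genes called lower, green the 1 gene called higher (Atp5g1) and grey the genes not called.

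In complex I, the genes called lower with the smallest p-values were Ndufs7, Ndufv2 and Ndufa13. Ndufs7, on chromosome 10, encodes the iron-sulfur subunit next to the ubiquinone site. It had normalised log2 intensities of 12.56, 12.50, 12.57 and 12.44 in the human IAPP wells, against 12.88, 12.93, 12.77 and 12.94 in the rat IAPP wells. The groups did not overlap, and the gene was 1.28-fold lower (log2 difference -0.36, SE 0.071, adjusted p = 0.00195). Its call was lost with the authors' values (-0.14, adjusted p = 0.0839). Ndufv2, on chromosome 17, an iron-sulfur subunit of the arm that oxidises NADH, had 12.37, 12.40, 12.47 and 12.37 with human IAPP, against 12.83, 12.85, 12.91 and 12.58 with rat IAPP. Rat replicate 4 was the lowest of its group but still above every human IAPP well, and the gene was 1.31-fold lower (-0.39, SE 0.085, adjusted p = 0.00328). Ndufa13, an accessory subunit also known as GRIM-19 and linked to cell death, had 14.33, 14.32, 14.26 and 14.27 with human IAPP, against 14.53, 14.58, 14.56 and 14.58 with rat IAPP. The wells of each group were close together and apart from the other group (-0.27, SE 0.062, adjusted p = 0.00462), yet the difference was 0.085 with the authors' values and 0.026 with scaling on detected probes.

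With these values, the largest difference of any member was that of Ndufb11, an accessory subunit of the membrane arm encoded on chromosome X, which is named here after its values were seen. Its probe was dim, with 7.24, 5.69, 6.60 and 6.34 in the human IAPP wells, of which 3 were detected, against 7.59, 7.46, 7.60 and 7.95 in the rat IAPP wells, of which 4 were. Human IAPP wells were all lower and also more scattered, with an SD of 0.64 against 0.21. The difference was -1.18 (SE 0.28, adjusted p = 0.00492) and ranged from -1.44 to -0.33 over the scalings. Its size went with the background correction. Among the members, counted from the lowest difference, it ranked 9 without that correction (-0.37) and 3 with the authors' values (-0.33). Its other probe was not tested.

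Besides Ndufs7 and Ndufv2, the core subunit gene Ndufs3 fell (-0.34, adjusted p = 0.0112). Of other core subunit genes, the flavin-binding Ndufv1 (-0.15, adjusted p = 0.185) and the iron-sulfur subunit Ndufs8 (0.11, adjusted p = 0.279) were not called, and differences between these genes were not tested. Accessory subunits called lower also included Ndufb5 (-0.38), Ndufa6 (-0.36), Ndufb8 (-0.32) and Ndufa7 (-0.32). At the other end, Ndufb6 had a difference of 0.23 without a call (adjusted p = 0.0598), and a second, dimmer probe for it had -0.64 (adjusted p over probes = 0.129). Ndufs1, the largest iron-sulfur subunit, had 1 probe, which was detected on no array.

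Complex II, succinate dehydrogenase, is both an enzyme of the citric acid cycle and an entry point of the chain. Sdhd, on chromosome 9, encodes a membrane anchor that helps to form the ubiquinone site. Its values were 9.55, 9.56, 9.71 and 9.83 in the human IAPP wells, against 10.40, 10.16, 10.28 and 9.93 in the rat IAPP wells. The groups did not overlap, although rat replicate 4 was the lowest rat IAPP well and near the highest human IAPP well. Sdhd was 1.44-fold lower (-0.53, SE 0.11, adjusted p = 0.00304). With rat replicate 4 as the only control it differed by -0.27 (adjusted p = 0.143). Sdhb, the iron-sulfur subunit, had 11.83, 11.85, 11.81 and 11.76 with human IAPP, against 12.13, 12.09, 12.06 and 12.11 with rat IAPP. The wells of each group lay close together, and the gene was 1.22-fold lower (-0.29, SE 0.062, adjusted p = 0.00344). Another Sdhb probe gave -0.24 and a dim one 0.24, and the mean over the 3 probes was not called (-0.094, adjusted p = 0.321). Sdhc, the partner anchor of Sdhd, had 12.28, 12.22, 12.21 and 12.30 with human IAPP, against 12.22, 12.21, 12.15 and 12.45 with rat IAPP, and did not pass the test (-0.0073, 95% interval -0.19 to 0.18).

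In complex III, which hands electrons from ubiquinol to cytochrome c, Uqcrh stood out. It encodes the hinge protein, an acidic subunit that holds cytochrome c1 near cytochrome c. The values were 13.88, 13.72, 14.08 and 13.83 in the human IAPP wells, against 14.60, 14.60, 14.50 and 14.35 in the rat IAPP wells. All human IAPP wells were below all rat IAPP wells, and the gene was 1.55-fold lower (-0.63, SE 0.097, adjusted p = 0.000414), with differences of -0.82 to -0.32 over the scalings. Its promoter is shown because Uqcrh was among the 3 genes whose call held in all 22 alternatives. It spans chr4:116075021-116075320 (GRCm38.p6, minus strand), 250 bases before to 50 after the start of the gene in RefSeq, and capitals mark the 1 match to an ETS family motif, CCGGAAGT, here on the opposite strand.
Uqcrh: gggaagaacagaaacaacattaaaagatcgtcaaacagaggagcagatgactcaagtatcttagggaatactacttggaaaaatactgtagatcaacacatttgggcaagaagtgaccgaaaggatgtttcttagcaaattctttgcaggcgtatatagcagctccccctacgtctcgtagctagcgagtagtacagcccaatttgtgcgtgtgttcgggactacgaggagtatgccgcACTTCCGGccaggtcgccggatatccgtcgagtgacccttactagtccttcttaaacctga

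The other complex III genes differed less. Uqcr10, a small membrane subunit, had 13.94, 13.81, 14.11 and 13.96 with human IAPP, against 14.18, 14.28, 14.13 and 14.22 with rat IAPP (-0.25, SE 0.081, adjusted p = 0.0251). Uqcrc2, a core subunit on the matrix side, had 13.10, 13.06, 13.10 and 13.01 with human IAPP, against 13.24, 13.20, 13.35 and 13.23 with rat IAPP (-0.19, SE 0.067, adjusted p = 0.0395). Both were marginal, with differences of 0.045 for Uqcr10 and 0.060 for Uqcrc2 in the authors' values. Leaving out human replicate 1 or 2 or rat replicate 2 ended the Uqcr10 call (highest adjusted p = 0.0696), and leaving out any well except rat replicate 4 ended the Uqcrc2 call (highest adjusted p = 0.102). The cytochrome c1 gene Cyc1 (0.061, adjusted p = 0.527), the other core subunit gene Uqcrc1 (-0.085, adjusted p = 0.563) and Uqcrb (0.12, adjusted p = 0.305) and Uqcr11 (-0.11, adjusted p = 0.346) were not called. Uqcrfs1, which encodes the Rieske iron-sulfur protein, and Uqcrq had 1 probe each, detected on no array.

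Cox7a2l had the smallest p-value of all members. Its product, also called SCAF1 or COX7RP, is related to the Cox7a subunits and is known for joining complexes III and IV into a supercomplex, and C57BL/6 mice are known to carry a short form of it that does not do so stably. The values were 12.95, 12.80, 13.09 and 12.93 in the human IAPP wells, against 13.79, 13.79, 13.71 and 13.85 in the rat IAPP wells. The gap between the groups was wider than the spread within either, and rat replicate 4 was the highest well. Cox7a2l was 1.80-fold lower (-0.84, SE 0.080, adjusted p = 2.10e-05), and its difference lay between -1.09 and -0.58 over the scalings. Its promoter at chr17:83514284-83514583 (GRCm38.p6, minus strand, RefSeq) is shown for the same reason as that of Uqcrh and holds 0 matches to the 5 motifs searched.
Cox7a2l: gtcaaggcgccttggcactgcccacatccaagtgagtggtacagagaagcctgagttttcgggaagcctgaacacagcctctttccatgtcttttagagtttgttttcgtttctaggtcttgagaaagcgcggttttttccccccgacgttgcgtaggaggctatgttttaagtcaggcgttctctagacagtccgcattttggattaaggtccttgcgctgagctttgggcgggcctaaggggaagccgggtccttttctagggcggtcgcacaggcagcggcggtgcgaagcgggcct

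**Figure D4:**
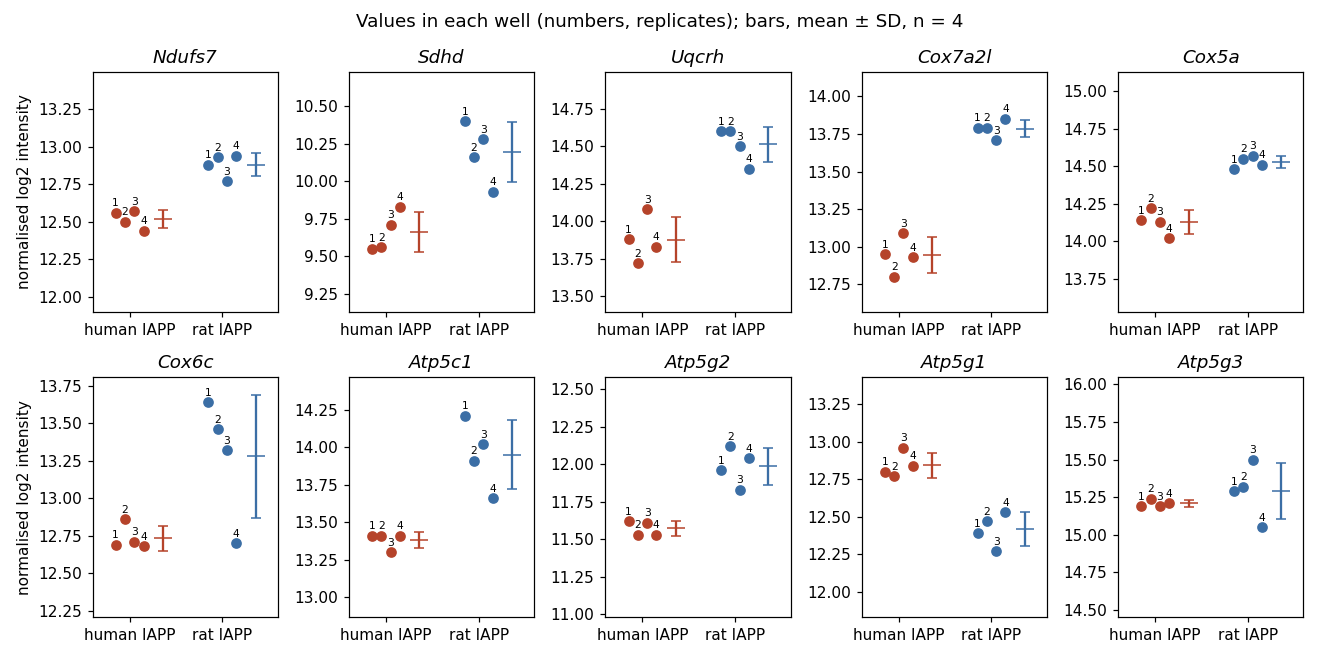
Normalised log2 intensity (vertical axes) of 10 member genes in each well, human IAPP on the left and rat IAPP on the right of each panel. Points are wells with their replicate number, and bars give the mean ± SD (n = 4). Cox7a2l, Uqcrh and Atp5g2 are lower and Atp5g1 higher in all human IAPP wells, while rat replicate 4 lies among the human IAPP wells for Cox6c.

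Complex IV, cytochrome c oxidase, has many small nuclear-encoded subunits around its catalytic core, several of them with tissue-specific isoforms. Cox5a, which binds a thyroid hormone metabolite, had 14.14, 14.22, 14.13 and 14.02 in the human IAPP wells, against 14.48, 14.55, 14.57 and 14.51 in the rat IAPP wells (-0.40, SE 0.070, adjusted p = 0.000961). Cox4i1, the ubiquitous isoform of the largest nuclear-encoded subunit, had 14.41, 14.40, 14.51 and 14.42 with human IAPP, against 14.70, 14.74, 14.70 and 14.82 with rat IAPP (-0.31, SE 0.067, adjusted p = 0.00344). Neither gene overlapped between the groups. Their calls went with the scaling, since the authors' values gave -0.071 for Cox5a (adjusted p = 0.347) and 0.022 for Cox4i1 (adjusted p = 0.816). Cox6c, named after its values were seen, had 12.69, 12.86, 12.71 and 12.68 with human IAPP, against 13.64, 13.46, 13.32 and 12.70 with rat IAPP. Rat replicate 4 lay among the human IAPP wells, and the difference of -0.55 had an SE of 0.18 (adjusted p = 0.0244). That call was kept in 14 of 22 alternatives and was lost with rat replicate 4 as the only control, without human replicate 1, 3 or 4 or rat replicate 1 or 2, with the authors' values (adjusted p = 0.0567) and with scaling on detected probes (adjusted p = 0.0725).

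Among the complex IV genes that have isoforms or close relatives, Cox4i1, Cox7a2l and Cox6a2 were called. Cox6a2, the heart and muscle isoform, had 7.99, 7.97, 7.90 and 7.83 with human IAPP, against 8.33, 8.21, 8.13 and 8.20 with rat IAPP, and was 1.23-fold lower (-0.29, SE 0.074, adjusted p = 0.00782). The ubiquitous Cox6a1 had 13.82, 13.68, 13.67 and 13.61 with human IAPP, against 13.70, 13.97, 13.78 and 14.11 with rat IAPP, which overlap (-0.20, adjusted p = 0.125). Cox7a1, a further muscle isoform, had 8.15, 8.24, 8.09 and 7.98 with human IAPP, against 7.63, 8.04, 7.39 and 8.14 with rat IAPP (0.32, SE 0.16, adjusted p = 0.118). Here the rat IAPP wells were the scattered ones. The 5 muscle markers were undetected on all arrays, with a summed linear level of 106 to 131 units in the human IAPP arrays and 97.5 to 125 in the rat IAPP arrays. Cox7a2, the widely expressed isoform, had 9.48, 9.44, 9.47 and 9.48 with human IAPP, against 9.46, 9.34, 9.30 and 9.27 with rat IAPP (0.13, adjusted p = 0.139).

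Cox5b, the zinc-binding subunit, had 14.20, 14.17, 14.18 and 14.08 with human IAPP, against 14.11, 14.30, 14.18 and 14.48 with rat IAPP (-0.11, adjusted p = 0.338). For Cox6b1, which faces the intermembrane space, the values were 13.81, 13.75, 13.82 and 13.71 with human IAPP, against 13.81, 14.03, 13.75 and 14.06 with rat IAPP (-0.14, adjusted p = 0.204). Cox8a had 14.24, 14.20, 14.28 and 14.06 with human IAPP, against 14.35, 14.29, 14.35 and 14.68 with rat IAPP, and missed the threshold (-0.22, adjusted p = 0.0833). In each of these 3 genes rat replicate 4 was the highest well. Among the isoforms that are restricted to certain tissues, Cox4i2, Cox7b2, Cox8b and Cox8c were detected on no array, and the testis isoform Cox6b2 on 1 human and 1 rat IAPP array.

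In the ATP synthase, the genes with the smallest p-values were that of the rotating gamma subunit, Atp5c1, and the c-ring genes Atp5g1 and Atp5g2. Atp5c1, the gamma subunit gene on chromosome 2, had 13.41, 13.41, 13.30 and 13.41 in the human IAPP wells, against 14.21, 13.91, 14.02 and 13.66 in the rat IAPP wells. The human IAPP wells were nearly equal and the rat IAPP wells spread, with replicate 4 the lowest. Atp5c1 was 1.48-fold lower (-0.57, SE 0.11, adjusted p = 0.00182), and its difference was -0.29 with rat replicate 4 as the only control (adjusted p = 0.0528). The other tested genes of the catalytic head that are named here, Atp5b for beta (0.087, adjusted p = 0.297), Atp5d for delta (-0.13, adjusted p = 0.409) and Atp5e for epsilon (-0.17, adjusted p = 0.570), were not called. Of the membrane sector, Atp5mpl, a small proteolipid, had 13.68, 13.64, 13.89 and 13.61 with human IAPP, against 14.02, 14.15, 13.91 and 13.95 with rat IAPP (-0.30, SE 0.088, adjusted p = 0.0151). Atp5l for subunit g (-0.32), Atp5h for d (-0.23) and Atp5j2 for f (-0.23) were also lower. With the authors' values the calls of Atp5mpl (-0.013), Atp5l (-0.11), Atp5h (-0.050) and Atp5j2 (0.087) were lost. Over the 22 alternatives the call was kept in 17 for Atp5mpl and Atp5l, in 9 for Atp5h and in 8 for Atp5j2, and the replicate block ended the calls of Atp5h and Atp5j2.

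Atp5g1, Atp5g2 and Atp5g3 encode the same mature c subunit behind different import sequences. Atp5g1 was called higher, Atp5g2 lower, and Atp5g3 was not called. Their promoters, 250 bases before to 50 after the gene start in RefSeq (GRCm38.p6, all on the minus strand), are printed so that the 3 can be compared. Atp5g1 lies at chr11:96075582-96075881, Atp5g2 at chr15:102670998-102671297 and Atp5g3 at chr2:73911277-73911576. Capitals mark matches to the NRF1 motif GCGCANGCG in Atp5g2 and Atp5g3, where N is any base, and, in Atp5g3 at its first run of capitals, to the estrogen-related receptor element AAGGTCA on the opposite strand, while Atp5g1 holds 0 matches to the 5 motifs.
Atp5g1: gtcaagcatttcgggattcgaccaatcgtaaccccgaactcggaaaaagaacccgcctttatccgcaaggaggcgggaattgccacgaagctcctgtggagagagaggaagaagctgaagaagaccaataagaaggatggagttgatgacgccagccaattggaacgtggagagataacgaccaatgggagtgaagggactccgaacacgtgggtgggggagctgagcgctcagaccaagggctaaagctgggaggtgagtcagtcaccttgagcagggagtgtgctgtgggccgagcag
Atp5g2: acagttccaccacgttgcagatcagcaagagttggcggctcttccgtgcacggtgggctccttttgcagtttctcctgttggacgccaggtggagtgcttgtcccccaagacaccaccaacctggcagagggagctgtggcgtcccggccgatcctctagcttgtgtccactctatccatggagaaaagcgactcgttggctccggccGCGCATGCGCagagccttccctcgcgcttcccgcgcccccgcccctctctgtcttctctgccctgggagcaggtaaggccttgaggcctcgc
Atp5g3: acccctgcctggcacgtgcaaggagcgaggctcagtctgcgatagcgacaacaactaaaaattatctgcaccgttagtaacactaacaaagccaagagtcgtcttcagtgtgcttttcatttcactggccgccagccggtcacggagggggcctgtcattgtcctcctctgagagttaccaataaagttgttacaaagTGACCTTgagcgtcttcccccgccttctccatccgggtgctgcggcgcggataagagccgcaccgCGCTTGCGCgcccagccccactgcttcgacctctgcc

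Atp5g1 had 12.80, 12.77, 12.96 and 12.84 in the human IAPP wells, against 12.39, 12.47, 12.27 and 12.53 in the rat IAPP wells. All human IAPP wells were above all rat IAPP wells, and the gene was 1.35-fold higher (0.43, SE 0.082, adjusted p = 0.00155). The difference was 0.14 with median scaling, where all genes shifted down and the call was lost (adjusted p = 0.596). Atp5g2 had 11.62, 11.53, 11.61 and 11.53 with human IAPP, against 11.96, 12.12, 11.83 and 12.04 with rat IAPP, and was 1.34-fold lower (-0.42, SE 0.079, adjusted p = 0.00152). Atp5g3 had 15.19, 15.24, 15.19 and 15.21 with human IAPP, against 15.29, 15.32, 15.50 and 15.05 with rat IAPP. These overlap, and the gene was not called (-0.086, SE 0.095, adjusted p = 0.472), although the authors' values gave 0.23 (adjusted p = 0.00242). Its probe was the brightest of all members, with a raw signal of up to 60001 units where the highest of any probe was 69743.7, and whether it was near saturation was not tested.

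The ratio of 2 genes on the same array does not depend on a common scaling factor, and 8 pairs of like-named subunit genes were compared in this way. Cox5a and Cox5b are different subunits, and the other pairs are of isoforms or related genes. Quantile normalisation and background correction are no common factor, so these ratios can still move with the processing. With 4 wells against 4, the smallest two-sided p of the exact permutation test is 0.0286. It was reached by 4 of the 8 pairs, and adjusted over the 8 it is 0.0571, so none passed a threshold of 0.05. The log2 ratio of Atp5g1 to Atp5g2 was higher by 0.85 with human IAPP (SE 0.046, exact permutation p = 0.0286, adjusted 0.0571), a 1.80-fold shift that lay between 0.79 and 0.92 over the 7 scalings. Atp5g1 to Atp5g3 was higher by 0.52 (SE 0.15, exact permutation p = 0.0286, adjusted 0.0571), and by 0.38 to 0.58 over the scalings. Atp5g2 to Atp5g3 differed by -0.33 (SE 0.14, exact permutation p = 0.0857, adjusted 0.114), with overlapping wells. The ratio of Cox7a2l to Cox7a2 was lower by a log2 difference of -0.97 (SE 0.076, exact permutation p = 0.0286, adjusted 0.0571) and lay between -0.98 and -0.69 over the scalings. That of Cox7a2l to Cox7a1 was lower by -1.16 (SE 0.18, exact permutation p = 0.0286, adjusted 0.0571) and lay between -1.16 and -0.72. Wells of the 2 groups did not overlap in either. Cox5a to Cox5b (-0.29, exact permutation p = 0.0571), Cox6a2 to Cox6a1 (-0.096, p = 0.543) and Cox7a1 to Cox7a2 (0.19, p = 0.400) overlapped between the groups, and Cox6a2 to Cox6a1 took both signs over the scalings (-0.30 to 0.054).

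Several genes had more than 1 probe, which gives a check within the arrays. Of 85 tested member probes, 33 were lower and 1 higher, where 29.9% and 24.5% of all 11451 probes were. Among the 11 genes with more than 1 tested probe, the probes shared a sign in 6 and differed in 5 (Ndufa5, Ndufb6, Ndufs4, Sdhb and Atp5j), and 0 had probes called in opposite directions. The standard error of a member's difference was 0.062 to 0.28, with a median of 0.086.

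Genes that work with the chain were looked at as lists, chosen with earlier results of these data known. The counts of each list stand beside 32.5% lower and 23.8% higher among all genes. With the authors' values those shares were 25.9% and 29.9%. Assembly factors, the helpers that build the complexes, were lower in 15 and higher in 6 of 35 tested genes, with a median of -0.24, and in 12 and 7 with the authors' values. Coa6, a copper chaperone of complex IV, had a mean of 10.49 ± 0.069 with human IAPP and 11.12 ± 0.094 with rat IAPP (SD, n = 4) and was 1.55-fold lower (SE 0.076, adjusted p = 8.93e-05). Ttc19, a complex III factor, had 9.54 ± 0.075 with human IAPP and 8.87 ± 0.090 with rat IAPP (SD, n = 4) and was 1.59-fold higher (SE 0.076, adjusted p = 6.53e-05), a call lost with median scaling (adjusted p = 0.427). The citric acid cycle list, which supplies NADH and succinate, gave 4 lower and 3 higher of 15, with a median of -0.098 that was 0.072 with the authors' values. The fumarase gene Fh1 was 1.73-fold lower (SE 0.11, adjusted p = 0.000314), and Idh3g, a subunit of isocitrate dehydrogenase, was 1.42-fold lower (SE 0.083, adjusted p = 0.000591).

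Other routes of electrons into ubiquinone went in both directions. Gpd2, the mitochondrial glycerol-3-phosphate dehydrogenase, which feeds electrons from cytosolic NADH into the chain, had a mean of 11.77 ± 0.11 with human IAPP and 10.19 ± 0.076 with rat IAPP (SD, n = 4). It was 2.99-fold higher (1.58, SE 0.081, adjusted p = 4.41e-07). Etfdh, which passes electrons from fatty acid oxidation to ubiquinone, was lower (-0.58, SE 0.085, adjusted p = 0.000316). In all, 3 of 7 tested genes of these donors and carriers were lower and 1 higher, or 3 and 3 with the authors' values. Among membrane channels and carriers, 2 of 7 were lower and 1 higher. The authors' values gave 0 lower and 5 higher, scaling on detected probes 0 and 2, and median scaling 0 and 0. Over all genes 32.5% were lower and 23.8% higher, or 25.9% and 29.9% with the authors' values. Those shares were 27.3% and 28.1% with scaling on detected probes and 40.1% and 6.61% with median scaling. The outer membrane channel gene Vdac2 was 1.64-fold higher (0.71, SE 0.087, adjusted p = 0.000102), a call lost with median scaling (adjusted p = 0.0832). Atpif1, the inhibitor of the ATP synthase, was 1.29-fold lower (-0.37, SE 0.068, adjusted p = 0.00139), with -0.014 in the authors' values (adjusted p = 0.853). Ndufab1, a complex I subunit whose symbol lies outside the naming rule, was higher (0.27, adjusted p = 0.0295), but had -0.067 under median scaling. That call was lost in 9 of 22 alternatives.

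Regulators of mitochondrial transcription and biogenesis were lower in 7 and higher in 2 of 15 tested genes, with a median of -0.26. They were lower in 7 and higher in 3 with the authors' values. All genes gave 32.5% lower and 23.8% higher, or 25.9% and 29.9% with the authors' values. Ppargc1b, a coactivator known to drive respiratory gene expression, had a mean of 7.85 ± 0.25 with human IAPP and 9.34 ± 0.30 with rat IAPP (SD, n = 4) and was 2.81-fold lower (SE 0.17, adjusted p = 6.31e-05). Its relative Ppargc1a was detected on no array. Tfam, the packaging and transcription factor of mitochondrial DNA, had 9.50 ± 0.064 with human IAPP and 10.05 ± 0.14 with rat IAPP (SD, n = 4) and was 1.46-fold lower (SE 0.086, adjusted p = 0.000505). Polg2, the accessory subunit of the mitochondrial DNA polymerase, was detected on 0 human and 4 rat IAPP arrays. It passed the detection filter only through the rat IAPP arrays, so no p-value is given, although it is counted among the 7 lower. It was at least 1.48-fold lower with human IAPP, a bound taken from the lowest signal among detected probes. Gabpb1, a subunit of the ETS factor GABP (also called nuclear respiratory factor 2), rose 2.35-fold (1.23, SE 0.096, adjusted p = 5.90e-06). Nrf1, the nuclear respiratory factor, had a difference of 0.26 (adjusted p = 0.0905) and was called in 6 alternatives. Esrra, the estrogen-related receptor alpha, was not called (-0.034, adjusted p = 0.712). Fh1, Idh3g, Gpd2, Etfdh, Coa6, Ppargc1b, Tfam and Gabpb1 kept their calls in all 22 alternatives.

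Promoter windows in RefSeq were available for 64 of the 79 member genes, 69 windows of 300 bases in all. The NRF1 motif GCGCANGCG, searched like the others on both strands, was found in 18 of them (26.1%), against 6.25% of all 32851 windows. The YY1 motif AAGATGGC was in 10 (14.5%, against 2.75%), the estrogen-related receptor element AAGGTCA in 7 (10.1%, against 4.72%), the ETS motif CCGGAAGT in 5 (7.25%, against 3.89%) and the TATA box TATAAA in 8 (11.6%, against 13.6%). The NRF1 motif was first searched with a further C at its 3′ end, which was in 15 member windows (21.7%, against 4.60% of all). The shorter form was adopted after those counts were seen. No matches of different motifs overlapped. Of the windows with the NRF1 motif, 7 were among the 29 of genes called lower and 11 among the 40 of the other members. A match is a stretch of letters and not a shown binding site.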

How the data were processed

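Total RNA from 8 wells was measured on Illumina bead arrays. Per the file headers, the authors deposited linear intensity values before normalisation, each with its detection p-value. A second table of rescaled intensity values, deposited by the authors, is linear, not centred and made by a method not given in the sources used here. Its column medians were 361.8, 362.9, 359.2 and 367.7 for human replicates 1 to 4 and 352.6, 356.6, 353.8 and 361.1 for rat replicates 1 to 4, and its upper quartiles 716.9 to 727.1. It served as an alternative only. Per-sample columns left unused numbered 0. Slides and scans are unknown here.

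Raw values were background corrected with limma 3.58.1 in R 4.3.3 (normexp with offset 16, its negative controls inferred from detection), quantile normalised and put on the log2 scale. This offset shrinks differences between dim values. Tested probes (11451 of 25697) were those detected at p under 0.05 by 4 or more of the 8 arrays, and a gene was its brightest tested probe (7809 genes). Differences, human minus rat, were fitted with lmFit and eBayes without covariates and adjusted by Benjamini-Hochberg over all genes. Genes were named by the platform annotation, which gives 1 symbol for 23978 probes, several for 0 and none for 1719. RefSeq gene numbers of GRCm38.p6 matched 23962 probes. The array table names no genome build.

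Members and lists were chosen with earlier results of these data known. The genes given with all values were, per complex, the up to 3 called lower and 3 called higher with the smallest p, the Sdh genes and the isoform or like-named groups, and in other lists the up to 2 called genes with the smallest p besides 5 regulators. Alternatives were other background corrections, scalings, filters, variance models, probe summaries and controls, a replicate block, each well left out, and a threshold of 0.01. Scaling on detected probes was chosen after seeing the data. The fit was run on simulated data in which a small set of probes changed, equally up and down. That run does not cover data where much of the array changes, as here, so it cannot decide between scalings. The number of arrays limits the precision.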

Additional observations from a re-analysis of the deposited data

Results flagged for a closer look

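In 3 of 60 groups of 4 wells, 1 well lay apart from the other 3, and chance alone gives about 1 in 20. For Cox4i1 with human IAPP, replicate 3 was at 14.51 while the others lay between 14.40 and 14.42. For Atp5c1 with human IAPP, replicate 3 was at 13.30 while the others were at 13.41. For Cox8a with rat IAPP, replicate 4 was at 14.68 while the others lay between 14.29 and 14.35, and Cox8a was not called with or without that array. All are normalised log2 intensities.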

How the results depend on the processing

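The count of all genes called stayed between 3434 and 4825 over the alternatives (4401 as reported). The lower member count of 32 became 21 with median scaling, 19 with cyclic loess and 9 with the authors' values. It was 11 with scaling on detected probes and 16 at a threshold of 0.01. At that threshold 1900 of all 7809 genes were lower and 1398 higher, and the shares of all genes under these scalings are given above. The higher count of 1 became 2 without background correction, with probes detected on all 8 arrays and with a variance trend. It was 3 with array weights, 4 with loess, 6 with scaling on detected probes, 10 with the authors' values and 0 under median scaling. With 1 well left out the counts were 20 to 31 lower and 1 to 4 higher. Of all genes, 2176 of 7594 were lower without rat replicate 2 and 2638 of 7654 without rat replicate 4, the fewest and the most. The replicate block left 24 lower, all among the 32, and 1 higher, beside 2385 lower and 1773 higher of all 7809 genes. Same-numbered wells did not deviate together (r = -0.127 to 0.161). The replicate block ended 8 calls, those of Uqcr10 (0.0679), Uqcrc2 (0.0824), Atp5h, Atp5j2, Ndufa8, Ndufb3, Ndufv3 and Ndufa4.

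Medians over members and over complexes I to V were -0.45, -0.47, -0.63, -0.38, -0.48 and -0.42 with median scaling. The authors' values gave 0.042, 0.012, -0.12, 0.11, 0.022 and 0.060 in the same order, against -0.015, -0.028, -0.19, 0.058, -0.038 and 0.017 with scaling on detected probes. Loess gave -0.11 for members and -0.091, -0.23 and -0.040 for complexes I, II and III. Rat replicate 4 alone gave -0.25 for members and -0.25 for complex III, and the mean over probes -0.094 for complex II. With 1 well left out these medians ran from -0.19 to -0.15, -0.20 to -0.15, -0.30 to -0.27, -0.16 to -0.061 (highest without rat replicate 4), -0.29 to -0.18 and -0.18 to -0.074. Single genes changed sign as given above, with 0.085 and 0.026 for Ndufa13, 0.045 for Uqcr10, 0.060 and 0.0027 for Uqcrc2, 0.022 for Cox4i1 and 0.23 for Atp5g3 (authors' values, then detected probes) and -0.067 for Ndufab1 (median scaling). The cause of these changes was not tested. Arrays rest on 4 wells per group, and 12 member probes were at background on all arrays.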

Other observations

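Several genes from the list of mitochondrial transcription and biogenesis regulators, picked here after their values were seen, were called lower with human IAPP. Besides Tfam, these were the RNA polymerase gene Polrmt (-0.36, adjusted p = 0.0033) and the termination factor gene Mterf1a (-0.54, adjusted p = 0.000193). Tfb1m (-0.38, adjusted p = 0.0112) and Tfb2m (-0.35, adjusted p = 0.0117), which are named as transcription factors, were the others. Each was called lower under all 7 scalings. The related gene Mterf3 was not called under any (-0.045, adjusted p = 0.812, with differences of -0.46 to 0.024). Transcripts of mitochondrial DNA itself were not analysed here. Gabpa, the DNA-binding partner of Gabpb1, was higher (0.64, adjusted p = 0.000917).

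Assembly factors of single complexes, also named after their values were seen, split by gene. The complex II factors Sdhaf1, Sdhaf3 and Sdhaf4 were lower (-0.32, -0.50 and -0.66, adjusted p = 0.0126, 0.00439 and 0.000164) under all 7 scalings, and Sdhaf2 was not called (0.037, adjusted p = 0.752). The complex III factor Bcs1l (-0.54) and the complex IV factors Surf1 (-0.47), Coa5 (-0.46) and Cox18 (-0.35) were lower under all 7 as well. Cox17, which carries copper to complex IV, was higher (0.48, adjusted p = 0.000952), as was Ecsit, a complex I factor also known from Toll-like receptor signalling (0.39, adjusted p = 0.00682), both in 6 of 7 scalings. So were Uqcc1 of complex III (0.26, adjusted p = 0.0218), Cox10 of complex IV (0.27, adjusted p = 0.0251) and Atpaf2 of the ATP synthase (0.31, adjusted p = 0.0198). The whole list gave 15 lower and 6 higher of 35, beside 32.5% lower and 23.8% higher among all genes.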
